A study of Homo sapiens with 4 samples.

Results

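The replication licensing genes described here are DTL, PCNA, CDT1, GMNN, CDC6, ORC1, MCM2, MCM3 and MCM6, 9 of 20037 protein-coding genes. They were followed through the listed H3K27ac regions to which the deposited annotation gave one of these names, 18 of 45672 regions in 4 tables. Kasumi-1, a human acute myeloid leukaemia line with the t(8;21) translocation, received CRISPR/Cas9 with a guide against SETD8 (sgSETD8, genotype labelled SETD8 knockout, 2 samples) or the control guide sgNT (by convention non-targeting, genotype labelled WT, 2 samples). The histone mark H3K27ac, found at enhancers and promoters in use, was mapped by CUT&Tag, a method that cuts and tags antibody-bound chromatin with a tethered transposase, and the series' design text names H3K27me1 where all sample labels name H3K27ac. All groups are of 1 cell line, and the labels do not say whether the edited cells were a pool or a clone, how long after editing they were taken, or whether the samples of a group came from separate cultures.

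Each group has 2 tables of regions on hg38, and their identifiers follow 2 naming schemes, so an sgSETD8 and an sgNT table were compared within each scheme. The submitters named these as tables of enhancers, and not every numbered peak is in a listed region. A promoter or gene without a listed region is therefore not shown to lack H3K27ac. The dense pair held 18061 sgSETD8 and 15149 sgNT regions of median width 1499 and 1515 bp, and the sparse pair 7276 and 5186 regions of median width 341 and 512 bp. The sparse sgNT table was assigned to its group because its identifiers name only the cell line and no SETD8 guide. Of 8 genes used to check the cell type (RUNX1, RUNX1T1, CD34, KIT, MPO, SPI1, CEBPA and CSF3R), 7 had a region in each dense table, 6 in the sparse sgSETD8 and 5 in the sparse sgNT table, while NKG7, HBB, ALAS2, EPOR, ALB and COL1A1 had none in any table. Of 4 T and NK cell genes, 3 (CD3E, CD2 and CD8A) had a region in both dense tables. KMT5A, the gene of SETD8, had 1 region of 13089 bp in dense sgSETD8 and 13208 bp in dense sgNT and none in the sparse tables. Its log2 density was higher with sgSETD8 by 0.13 after subtracting the median of matched regions (SD 0.24 over 1769 regions), and this mark does not show whether the protein was lost. The files hold no read counts, so depth is unknown, and 1 table per group within a pair gives no replicate error. With 2 tables against 2 the smallest exact two-sided permutation p is 0.333, so differences below are descriptions of these tables and carry no p-value.

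Before S phase, the origin recognition complex, whose largest subunit is ORC1, marks replication origins and with CDC6 and CDT1 loads the ring-shaped MCM helicase, of which MCM2, MCM3 and MCM6 are subunits. Relicensing within the same cell cycle is blocked because geminin (GMNN) binds CDT1, and because CDT1 bound to the sliding clamp PCNA on DNA is handed to the ubiquitin ligase CRL4 by its adaptor CDT2, the product of DTL. SETD8 is destroyed by the same PCNA and CDT2 route in S phase, and the H4K20 methylation it begins is read, in its dimethyl form, by ORC1.

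By the deposited gene names, 5 of the 9 genes had a region in the dense sgSETD8 table and 4 in the dense sgNT table. Those with sgSETD8 were DTL, GMNN, ORC1, MCM2 and MCM6, and those with sgNT were DTL, CDT1, ORC1 and MCM2. Among 20037 protein-coding genes, 36.2% had a region in the dense sgSETD8 and 33.0% in the dense sgNT table. In the sparse pair 4 of the 9 genes (DTL, CDT1, CDC6 and MCM6) had a region with sgSETD8 and none with sgNT, where all protein-coding genes stood at 18.0% and 14.9%. The named regions numbered 6 in dense sgSETD8, 7 in dense sgNT, 5 in sparse sgSETD8 and 0 in sparse sgNT. PCNA and MCM3 had no region in any table, as had 51.9% of all protein-coding genes.

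GMNN and MCM6 were found with sgSETD8 alone in the dense pair, 2 of 9 genes beside 7.78% of all genes, and CDT1 with sgNT alone, 1 of 9 beside 4.57%. In the sparse pair sgSETD8 alone held 4 of 9 beside 11.2% of all genes, and sgNT alone held 0 of 9 beside 8.09%. MCM6 alone of the 9 was named in each sgSETD8 table but never with sgNT, a pattern of 1.20% of all genes. Among the best-ranked 5000 regions the dense counts were 3 genes with sgSETD8 and 1 with sgNT, beside 15.2% and 15.3% of all genes. These counts follow the gene that the annotation gives to a region, and the positions below show where name and position part.

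The length covered was therefore also taken by position, over each gene body with 50000 bp on either side, whatever gene a region was assigned to, a measure chosen after the values were seen. Cover counts the whole span of a region, so it includes the sequence between joined peaks. By this window 8 of the 9 genes had a region in dense sgSETD8, 7 in dense sgNT, 5 in sparse sgSETD8 and 4 in sparse sgNT, where all protein-coding genes stood at 64.5%, 60.2%, 36.1% and 32.9% in the same order. In the dense pair the windows of the 9 genes held 176.9 kb of listed regions with sgSETD8 and 90.69 kb with sgNT, a ratio of 1.95, where the whole tables covered 152.8 and 132.8 Mb, a ratio of 1.15. More was covered with sgSETD8 in 7 of the 9 windows and with sgNT in 1, beside 42.1% and 26.2% of all protein-coding genes. Those shares include 6332 of 20037 genes with nothing covered in either dense table, while 8 of the 9 windows had some cover. Left out in turn, the genes moved the summed ratio between 1.73 (without GMNN) and 2.47 (without DTL). The largest differences, sgSETD8 minus sgNT, were at CDT1 (24.4 kb), GMNN (19.9 kb), ORC1 (18.2 kb) and MCM6 (16.4 kb), at percentiles 97.5, 96.1, 95.4 and 94.4 of the same difference over all protein-coding genes. MCM2 (5.17 kb), PCNA (2.53 kb) and DTL (1.17 kb) differed less, and CDC6 fell by 1.62 kb.

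In the sparse pair the windows held 8.87 kb with sgSETD8 and 12.83 kb with sgNT, a ratio of 0.691 beside 0.888 for the whole tables. More was covered with sgSETD8 in 3 windows and with sgNT in 3, where all genes stood at 24.3% and 26.8%. Of all genes, 9797 had nothing covered in either sparse table, while 6 of the member windows had some cover. The joining of peaks differed as well. The windows held 51 peaks in 18 regions with sgSETD8 and 39 peaks in 25 regions with sgNT, and the 13 sgNT regions left as unjoined peaks were all at CDT1, without which the ratio was 1.83. The density of these regions, the authors' summed signal divided by summed width on an unstated scale, was 0.461 per bp in dense sgSETD8 and 0.701 in dense sgNT. These values are not centred. The median densities of the whole tables were 0.589 and 0.756, but a median gives each region equal weight whatever its width. They are therefore not directly comparable with the window values, in which wide regions weigh more. The difference in joining also enters the window values.

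**Figure D1:**
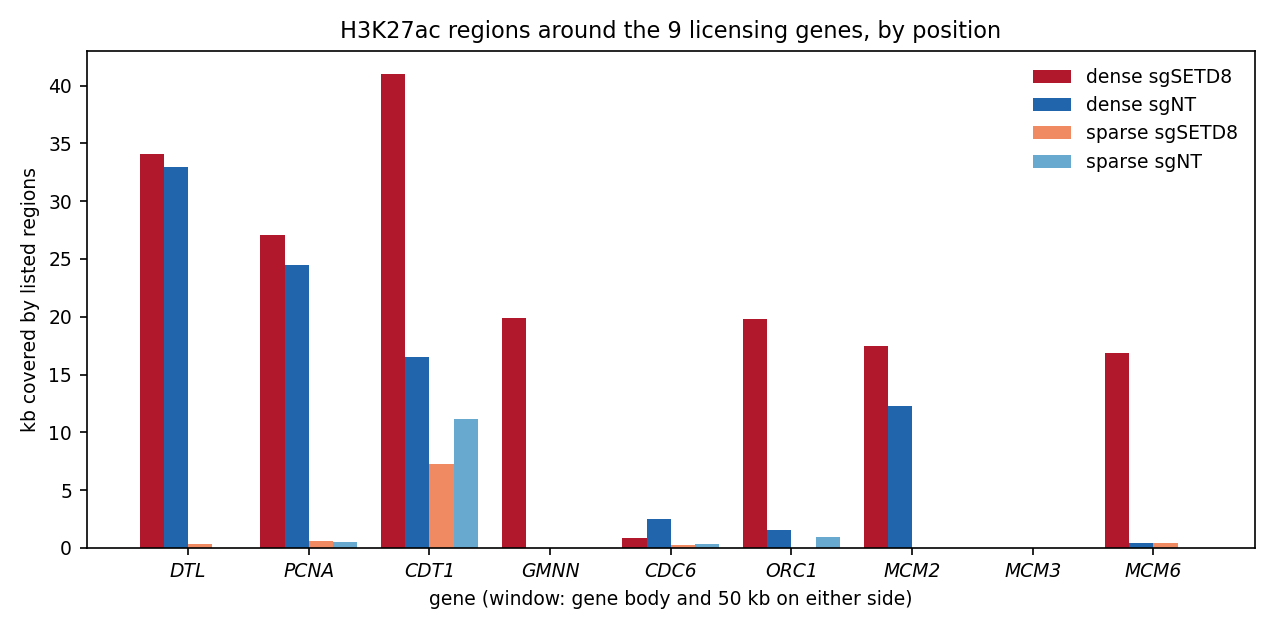
The bars give the kb covered by listed H3K27ac regions in a window of the gene body and 50 kb on either side, for 9 genes and 4 tables (1 table per bar, so no error). CDT1, GMNN, ORC1 and MCM6 show the widest gaps between dense sgSETD8 and dense sgNT, and MCM3 has no region in its window in any table.

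DTL, the substrate adaptor that marks both CDT1 and SETD8 for destruction, was named in 3 of the 4 tables, and its promoter lay inside a listed region in both dense tables. The region spanned chr1:212031045-212041282 with sgSETD8 (10238 bp, 2 peaks, density 0.731 per bp, rank 2809) and chr1:212027570-212041725 with sgNT (14156 bp, 3 peaks, density 0.772, rank 2216). The sgSETD8 region lies wholly inside the sgNT one. Relative to the median log2 ratio of -0.27 over 6011 dense regions that cover each other by at least 50%, DTL stood at a log2 density ratio of 0.19, smaller than the spread of those regions (SD 0.30). The sparse sgSETD8 table had a 354 bp region at chr1:212040501-212040854, in intron 1, inside the DTL region of both dense tables (density 0.980, rank 2998). The nearest sparse sgNT region lay 450062 bp away. A second sparse sgSETD8 region (chr1:211959319-211959742) and a second dense sgNT region (chr1:211933588-211933942) carried the name DTL at 76023 and 101788 bp upstream, and the dense sgNT one overlapped a dense sgSETD8 region named for LPGAT1-AS1.

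The end of the DTL gene was covered as well, under the name of the microRNA gene MIR3122. With sgSETD8 a region of 5 peaks ran over chr1:212087751-212110932, and a further region lay at chr1:212124937-212125616. With sgNT the regions were chr1:212087819-212089814 and chr1:212108830-212125611, the latter running past the end of the 5-peak region. In all, 32.9% of the DTL gene body was covered with sgSETD8 and 11.5% with sgNT, shares that include the sequence between joined peaks. Within the gene body the tables part mostly between these sgNT regions. Over the whole DTL window the cover was close, 34.1 kb with sgSETD8 and 32.93 kb with sgNT.

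GMNN, the inhibitor of licensing, was covered in 1 of the 4 tables. One sgSETD8 region, chr6:24773391-24793294, spanned the whole gene and both of its listed transcription start sites (19904 bp, 3 peaks, density 0.491, rank 2157). Over the window, 0 kb was covered in the 3 other tables. The sgSETD8 region joins 3 peaks whose places in the span are not given, so a peak at either start site is not shown. The nearest dense sgNT region lay 117454 bp away, at KIAA0319. The start sites of 2 of the 9 genes (DTL and GMNN) lay inside a dense sgSETD8 region and that of 1 (DTL) inside a dense sgNT region, beside 10.9% and 9.32% of 15843 protein-coding genes.

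Peak numbers inside the region identifiers rise along each chromosome without exception. A jump in them beyond the peaks of a region gives a lower bound on the peaks that the tables do not list. It is no more than that, because joined peaks can share a number. At RIPOR2 a dense sgSETD8 region of 8 peaks began at peak 46176 and the next region at peak 46182. Around GMNN, with each joined peak counted as a number of its own, the dense sgSETD8 identifiers showed no jump from peak 46163 to peak 46169. They ran through regions at C6orf62, GMNN and RIPOR2. The GMNN region joins 3 peaks, so unlisted sgSETD8 peaks there are not excluded. The dense sgNT identifiers jumped from peak 42826 at chr6:24655544-24655936 to peak 42832 at chr6:25006511-25010382, so that at least 5 numbered sgNT peaks in the interval that holds GMNN are in no listed region. Where in the interval they lie was not analysed here, and their part in the GMNN difference was not tested. Counted as lower bounds, such jumps across the start site were present at 7 of the 9 genes in dense sgSETD8 (0 to 7 numbers). In dense sgNT they were present at 9 of 9 (1 to 9). Protein-coding genes as a whole stood at 71.9% and 76.0%, in the same order.

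RefSeq promoter sequences (GRCh38.p14, 250 bases before to 50 after the start) are shown for DTL and for both listed starts of GMNN, because these are the promoters that a listed region covered. E2F factors, which switch on S phase genes, are known to bind sites of the letters TTTCCCGC, TTTGGCGC, TTTCGCGC or TTTGCCGC. Each match on either strand is in capitals. The DTL promoter is chr1:212035498-212035797 and the GMNN promoters are chr6:24774687-24774986 and chr6:24775163-24775462, all on the plus strand.
DTL: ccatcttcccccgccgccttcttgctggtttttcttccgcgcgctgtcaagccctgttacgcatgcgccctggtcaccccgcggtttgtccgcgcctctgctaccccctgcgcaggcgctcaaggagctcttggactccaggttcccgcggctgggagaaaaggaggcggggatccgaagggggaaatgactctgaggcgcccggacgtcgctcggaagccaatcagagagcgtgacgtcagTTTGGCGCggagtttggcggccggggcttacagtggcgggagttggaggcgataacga
GMNN first start: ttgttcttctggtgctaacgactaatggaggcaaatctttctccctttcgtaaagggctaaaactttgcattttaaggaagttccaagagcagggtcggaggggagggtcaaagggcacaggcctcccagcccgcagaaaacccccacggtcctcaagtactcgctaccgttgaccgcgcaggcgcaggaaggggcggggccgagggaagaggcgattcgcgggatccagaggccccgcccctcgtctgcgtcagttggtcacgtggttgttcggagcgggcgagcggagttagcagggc
GMNN second start: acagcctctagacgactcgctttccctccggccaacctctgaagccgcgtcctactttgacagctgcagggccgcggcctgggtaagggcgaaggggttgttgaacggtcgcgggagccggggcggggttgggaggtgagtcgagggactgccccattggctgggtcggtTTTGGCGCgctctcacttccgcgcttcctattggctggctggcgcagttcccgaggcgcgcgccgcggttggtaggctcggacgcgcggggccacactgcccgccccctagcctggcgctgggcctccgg

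A match stood 8 bases before the DTL start and 80 bases before the second GMNN start, and the first GMNN promoter held none. Of the 9 genes, 8 had a match in a listed promoter, ORC1 being the exception, and 8 of their 11 promoters held one, against 4.10% of 22199 promoters of protein-coding genes. The 9 genes were chosen for their role in licensing, so this share describes them and tests nothing. For the 6 other genes the first match is given with its neighbouring bases, from chr20:5126664-5126691 (PCNA, minus strand), chr16:88803744-88803771 (CDT1, plus strand), chr17:40287876-40287903 (CDC6, plus strand), chr3:127598403-127598434 (MCM2, plus strand), chr6:52284899-52284926 (MCM3, minus strand) and chr2:135876574-135876605 (MCM6, minus strand). In MCM2 and MCM6 the capitals hold 2 overlapping matches on opposite strands.
PCNA: agcgtcagggGCGGGAAAaggcgtgcgt
CDT1: cagggcgcccGCGGGAAAtttggcggga
CDC6: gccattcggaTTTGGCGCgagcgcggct
MCM2: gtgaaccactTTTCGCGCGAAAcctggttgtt
MCM3: ggatggtacgTTTCCCGCcaccgcgggg
MCM6: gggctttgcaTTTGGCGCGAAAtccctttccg

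Matches stood at promoters with a listed region (DTL, GMNN) and at promoters with none (PCNA, CDT1, CDC6, MCM2, MCM3, MCM6). The lists are of enhancers and leave out some numbered peaks, so whether the latter promoters carry H3K27ac is not shown. The CCAAT box, searched in the same way, was present in 8 of the 11 promoters (7 of the 9 genes) and in 34.7% of protein-coding promoters.

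CDT1, the loader that geminin restrains, had named regions in dense sgNT but not dense sgSETD8, and in sparse sgSETD8 but not sparse sgNT. Its dense sgNT regions were 3 unjoined single peaks, chr16:88794935-88795497 (density 0.653, rank 12550), chr16:88799246-88799848 (0.776, rank 11402) and chr16:88806122-88806497 (0.937, rank 12749). The first and second lay inside a dense sgSETD8 region of 40969 bp and 9 peaks, chr16:88759597-88800565 (density 0.564, rank 753), which the annotation gave to PIEZO1, a mechanosensitive ion channel gene next to CDT1. The third, in intron 6, had no dense sgSETD8 region within 5556 bp. With sgNT the PIEZO1 side of the locus was listed as 10 separate peaks, and the window held 14 regions of 1 peak each, against 9 peaks joined into 1 region with sgSETD8, so the 24.4 kb difference in cover there includes the sequence between peaks. In the sparse pair CDT1 had 1 sgSETD8 region, chr16:88792424-88799640 (7217 bp, 2 peaks, density 0.665), rank 239 of 7276, at percentile 96.7 of its table the highest of the 18 member regions. Ranks follow the signal, which is length times density, and by density alone this region stood at percentile 30.1 of its table. It overlapped 3 dense sgNT regions and the dense sgSETD8 region, and the sparse sgNT table instead held chr16:88770691-88781841 at PIEZO1, 10582 bp away.

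CDC6, which recruits CDT1 to the origin, had a single named region, in sparse sgSETD8 (chr17:40264739-40265012, density 0.576, rank 6698 of 7276). At 274 bp it had the shortest width in that table, shared by 29.7% of its regions, lay in an exon of the neighbouring gene WIPF2 at 23004 bp from the CDC6 start, and overlapped no region of the 3 other tables. Both dense tables had 1 region in the CDC6 window, at RARA, 879 bp with sgSETD8 and 2504 bp with sgNT.

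ORC1, the origin recognition subunit that reads methylated H4K20, had an intron 3 region in both dense tables, chr1:52399961-52401010 with sgSETD8 (1050 bp, density 0.637, rank 10926) and chr1:52400185-52400712 with sgNT (528 bp, density 1.03, rank 10760). The log2 density was lower with sgSETD8 by 0.43 relative to matched regions (-0.43, SD 0.30 over those regions), at a reciprocal cover of 50.3%. Against the wider set of regions with any overlap it was -0.40 (SD 0.67). The region was 1.99 times as wide with sgSETD8, so width and density differ together here. A second sgSETD8 region (chr1:52386459-52387296, intron 8, 838 bp, density 0.380) had no sgNT counterpart, the nearest lying 12888 bp away. The cover gap of 18.2 kb at ORC1 came mostly from regions of neighbours: chr1:52348721-52357995 at CC2D1B was listed with sgSETD8 alone, and chr1:52423881-52432494 at PRPF38A spanned 8614 bp with sgSETD8, against 1022 bp with sgNT.

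MCM2, a helicase subunit that also binds histones, had 1 region in each dense table, both annotated to intron 8 by their centre. With sgSETD8 it was chr3:127607480-127613988 (6509 bp, 2 peaks, density 0.621, rank 4672) and with sgNT chr3:127612556-127613202 (647 bp, 1 peak, density 0.972, rank 10191). The sgNT region lies within the sgSETD8 one, which covers 27.1% of the gene body, against 2.69% with sgNT. The sgSETD8 span joins 2 peaks and includes the sequence between them, while the sgNT region is 1 peak. Neither sparse table had a region in the MCM2 window.

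MCM6 was the member with named regions in both sgSETD8 tables, but at different places. The dense sgSETD8 region, chr2:135856307-135871244 (14938 bp, 3 peaks), was annotated to intron 7 by its centre but covered 40.6% of the gene body. That share includes the sequence between the joined peaks. The region had a density of 0.227 per bp, at percentile 2.40 of its table. Dense sgSETD8 regions of 10000 to 20000 bp had a median density of 0.393, with 0.223 as their 10th percentile. The nearest dense sgNT region lay 63383 bp away, and at least 2 sgNT peak numbers were unused between chr2:135792528-135792923 and chr2:135944642-135945160, against 3 listed peaks with at least 1 unused number on either side of them with sgSETD8. The sparse sgSETD8 region, chr2:135898493-135898909 (417 bp, density 0.657, rank 4090), was intergenic, 22258 bp upstream, and lay 27248 bp from the dense one. The best-ranked 5000 regions of the dense sgSETD8 table did not include MCM6 (rank 5237).

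MCM3 and PCNA had no named region. The window of MCM3, a helicase subunit, held nothing in any table, and the nearest regions to its start lay 67499 bp away at PAQR8 in dense sgSETD8 and 67568 bp away in dense sgNT. PCNA, the clamp that presents CDT1 and SETD8 to CRL4, had none of its gene body covered, but a neighbouring region at TMEM230 was the only one in any member window listed in all 4 tables. It lay at chr20:5073145-5080899 in dense sgSETD8 and chr20:5073193-5080904 in dense sgNT, with densities of 0.378 and 0.488 per bp. The sparse tables had it at chr20:5078179-5078786 with sgSETD8 and chr20:5078197-5078665 with sgNT, with densities of 1.63 and 2.53.

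**Figure D2:**
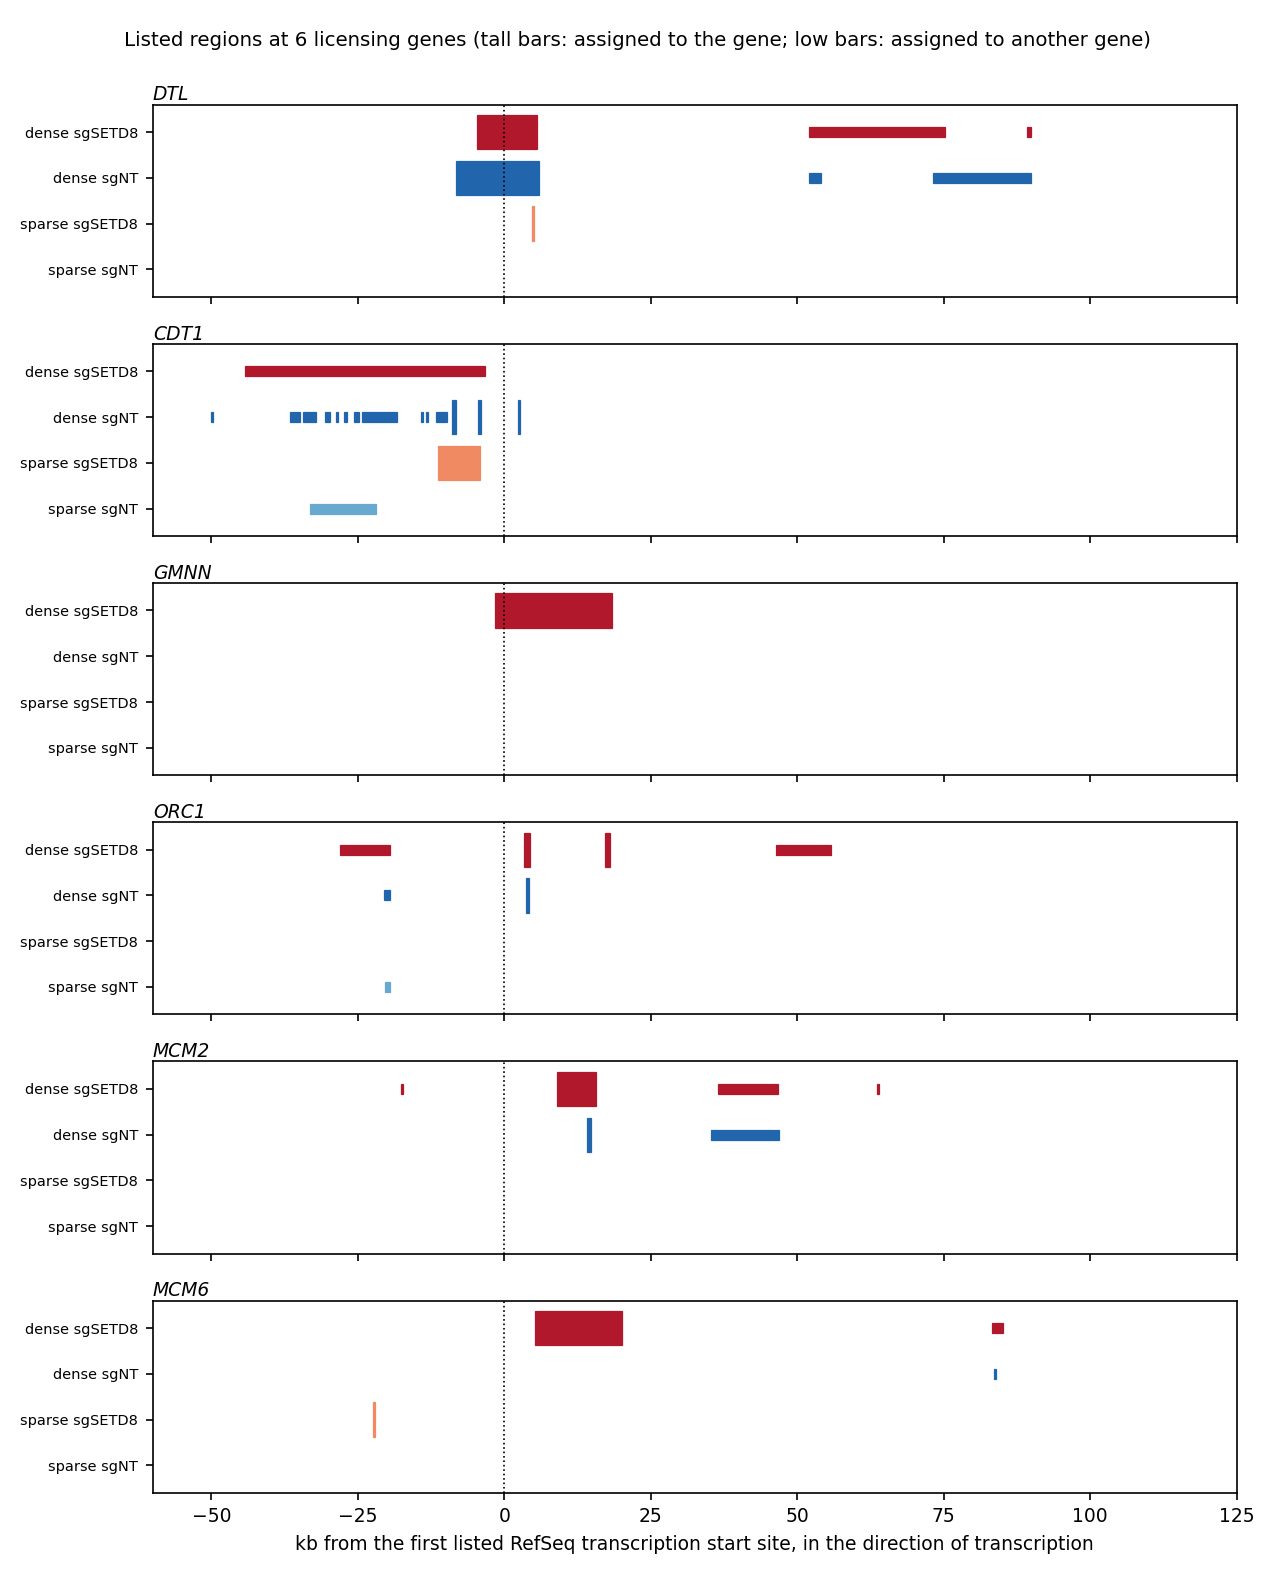
Listed regions of the 4 tables around 6 of the genes, drawn to scale by kb from the first listed start site (dotted line) in the direction of transcription. Tall bars are assigned to the gene and low bars to another gene, as at CDT1, where the dense sgSETD8 region upstream of the start is assigned to PIEZO1.

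Over the 6 dense sgSETD8 and 7 dense sgNT member regions, width and density differed together. The sgSETD8 regions were 838 to 19904 bp wide with densities of 0.227 to 0.731, and the sgNT regions 355 to 14156 bp wide with densities of 0.567 to 1.03. The tables as a whole had median densities of 0.589 with sgSETD8 and 0.756 with sgNT, so the whole sgSETD8 table lay lower. No member region of either pair was matched by one of the other group at the 90% reciprocal cover used for density, 2 were at 50% (DTL and ORC1) and 6 at any overlap. At 1 bp of overlap, 3 of 6 dense sgSETD8 member regions (at GMNN, MCM6 and ORC1) and 1 of 7 dense sgNT member regions (at CDT1) had no counterpart, beside 34.0% and 22.7% of all regions of those tables. All 5 in sparse sgSETD8 had none, beside 85.1% of that table.

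**Figure D3:**
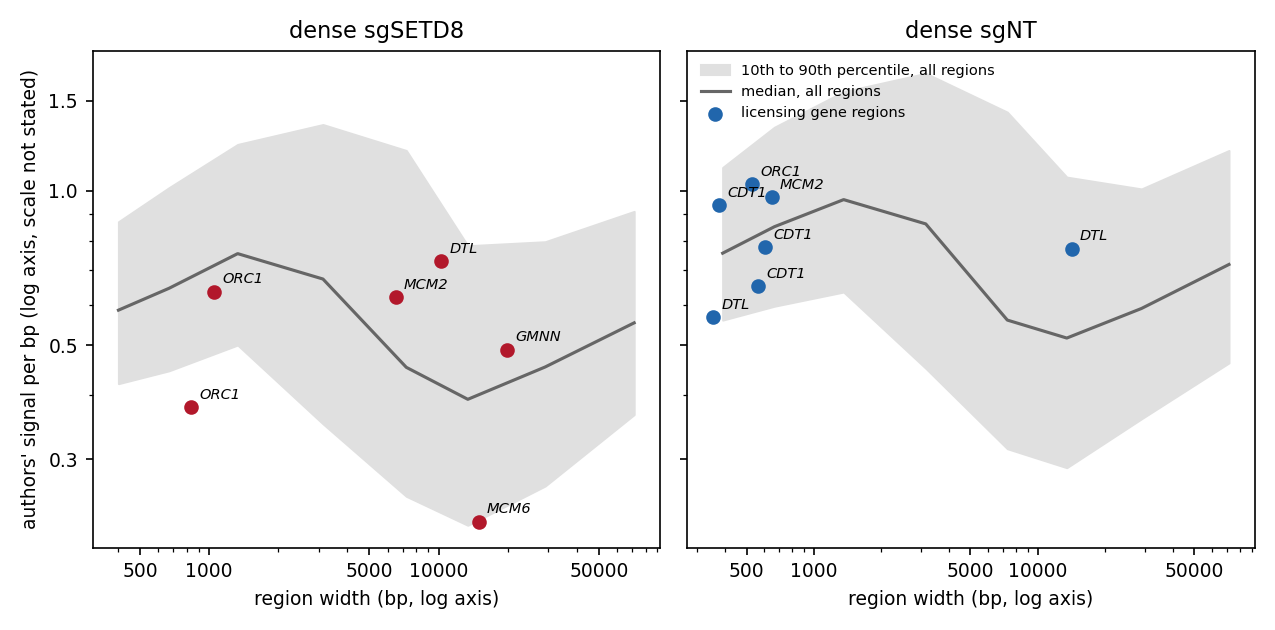
Authors' signal per bp against region width (both log axes) for the dense member regions of sgSETD8 (left) and sgNT (right), over the median and the 10th to 90th percentiles of all regions of the table by width. MCM6 lies near the lower edge at its width, the narrower ORC1 region of sgSETD8 (density 0.380) lies below it, and DTL lies above the median in both tables for its region of 10238 and 14156 bp.

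The other genes of licensing and S phase were taken from 6 lists that hold 87 genes beside the 9. In the dense pair 47 had a region with sgSETD8 and 46 with sgNT, 54.0% and 52.9% beside 36.2% and 33.0% of all protein-coding genes. Regions in 1 group only were found for 12 of the 87 genes with sgSETD8 and 11 with sgNT, beside 7.78% and 4.57% of all genes. In the sparse pair 16 had a region with sgSETD8 and 8 with sgNT, 18.4% and 9.2% beside 18.0% and 14.9% of all genes. Of these, 13 and 5 were in that group only, beside 11.2% and 8.09%. Helicase loading genes had 7 and 6 of 13 in the dense pair and origin firing genes, such as CDC45 and the GINS subunits, 8 and 7 of 15. Degradation genes of the CRL4 and SCF ligases had 9 and 6 of 11, with the CRL4 scaffold CUL4B, the SCF adaptor SKP1 and CDKN1A in sgSETD8 alone, although SKP1 was named in sgNT alone in the sparse pair. Clamp, clamp loader and polymerase genes had 10 and 11 of 26, E2F and RB genes 10 and 12 of 15, and H4K20 and ORC1 chromatin genes 3 and 4 of 7.

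Of the 87 genes, 2 were named in both sgSETD8 tables and no sgNT table and 1 the reverse. MCM10, which helps the helicase to start unwinding, had an intron 2 region in dense sgSETD8 (chr10:13167759-13168386, density 0.621, rank 13348) and another, 25989 bp before the start, in sparse sgSETD8 (chr10:13135335-13135804), neither with an sgNT region within 801565 bp in its pair. CDKN1A, the p21 inhibitor that also binds PCNA, had 2 dense sgSETD8 regions, the better-ranked at chr6:36684982-36686548, and 1 sparse one at chr6:36686206-36686609. Each overlapped an sgNT region of its pair that was named for RAB44, chr6:36681796-36707840 in the dense and chr6:36686157-36692649 in the sparse pair. LIN9, a subunit of the DREAM complex, was named in both sgNT tables alone, and its better-ranked dense region (chr1:226348991-226353910) overlapped an sgSETD8 region named for PARP1 (chr1:226348911-226373332). Its sparse region had no sparse sgSETD8 region within 231224 bp.

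**Figure D4:**
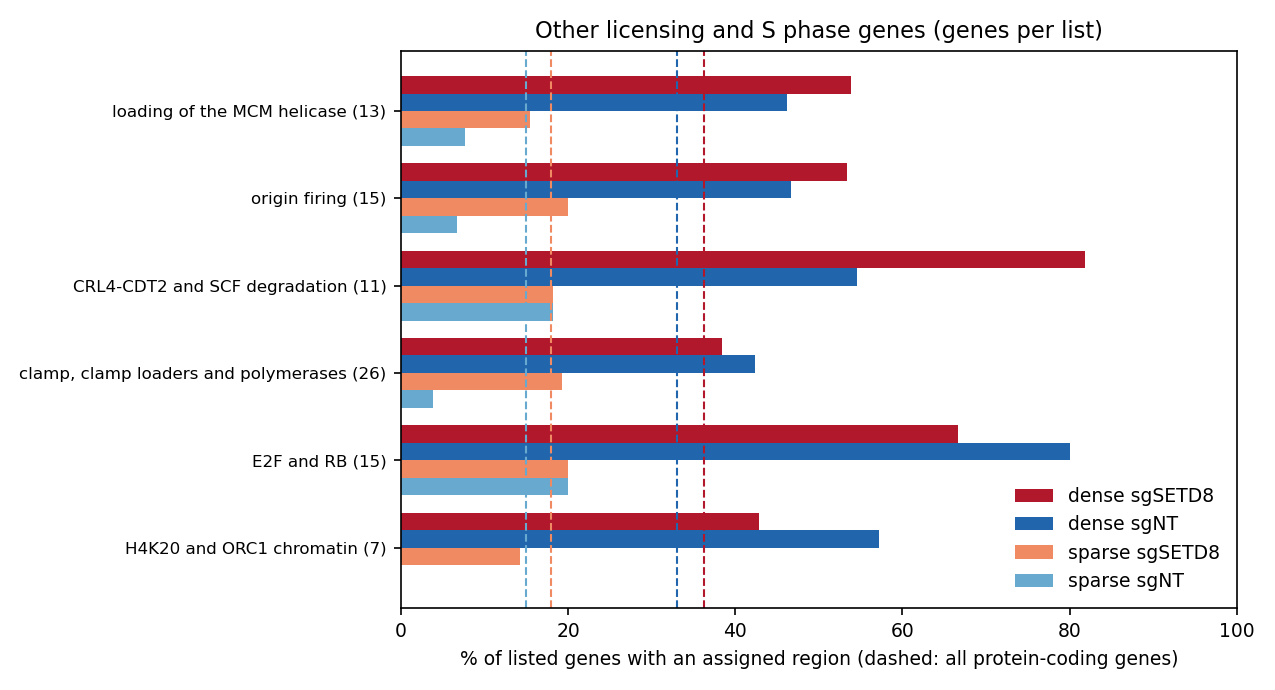
Bars give the share of genes of each list (genes per list in brackets) with an assigned region in each of the 4 tables, and dashed lines the share over all protein-coding genes. The E2F and RB list stands at 66.7% in dense sgSETD8 and 80.0% in dense sgNT, and all lists lie above the dashed lines in the dense tables, while in the sparse tables they lie on both sides of them.

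DTL was found in 3 tables, the most of the 9 genes, with its best-ranked region at percentile 84.5 of dense sgSETD8, 85.4 of dense sgNT and 58.8 of sparse sgSETD8. Here 100 is the largest signal, which depends on width as well as density. By the sum over 4 tables of the differences in this percentile, the 3 most alike protein-coding genes were TXNRD1 (6.04 percentile points), APMAP (6.69) and EHMT1 (7.12). CDT1, at percentiles 24.7 in dense sgNT and 96.7 in sparse sgSETD8, had CWH43 (4.10), SHISAL1 (12.4) and KCNG2 (13.6) as its nearest genes.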

How the data were processed

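H3K27ac CUT&Tag regions were taken from 4 tables, 2 per group, of 4 samples. Per the labels, 100000 cells entered each library. The submitters' processing notes name cutadapt, Bowtie2 and hg38. For peak calling, joining and annotation the tools are not given in the sources used. The deposited value of a region is a signal, equal to its length times a density written to 4 decimals, on a scale that is not stated. It was used to rank regions within a table. Log2 density differences between groups were given only after subtracting the median over matched regions. The densities printed for each table are not centred and not on a shared scale, also where those of both groups stand together. Region identifiers placed each table in its group, and which of a group's 2 samples it holds is unknown. In all, 0 value columns had no group.

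Regions were counted by the deposited gene name, checked by Entrez ID against a RefSeq gene table (GRCh38.p14), and by position with a minimum overlap of 1 bp. Percentages of all genes use that table's protein-coding genes. Start sites and promoters come from RefSeq, and all 9 genes matched. Interval functions were tested on simulated data. The members, lists and measures were chosen with earlier results of these data known. Named genes were the 9, KMT5A, genes assigned to regions within 50 kb of a member, list genes found in both tables of 1 group only, and the 3 genes nearest in rank pattern to each of 2 members. Others named were chosen after their values were seen. Python 3.11.15, numpy 2.4.6, pandas 2.3.3 and matplotlib 3.10.9 were used.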

Additional observations from a re-analysis of the deposited data

Results flagged for a closer look

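DTL and CDT1 had opposite differences in number of named regions, sgSETD8 minus sgNT, in the dense and sparse pairs, and whether the pairs differ was not tested. For DTL the difference was -1 in the dense pair (1 sgSETD8 and 2 sgNT regions) and 2 in the sparse pair (2 and 0). For CDT1 it was -3 in the dense pair (0 and 3) and 1 in the sparse pair (1 and 0). By position, 2 of the 3 dense sgNT regions of CDT1 lay inside a dense sgSETD8 region named for PIEZO1, and the extra dense sgNT region of DTL lay inside one named for LPGAT1-AS1.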

How the results depend on the processing

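Of 74 recomputed values, 50 stayed within 1.5 times of the reported count or within 1 SD, and 24 did not. With regions assigned to genes within 50000 bp of the gene body, the genes with a region became 8 in dense sgSETD8, 7 in dense sgNT and 4 in sparse sgNT, with 18, 25 and 4 regions, and the other list genes became 73 in dense sgSETD8, 32 in sparse sgSETD8 and 34 in sparse sgNT. With the best-ranked 5000 regions, 3 genes were left in dense sgSETD8 and 1 in dense sgNT, 0 dense sgNT regions lacked a counterpart, and the other list genes fell to 22, 23 and 10 (dense sgSETD8, dense sgNT, sparse sgSETD8). With a width of at least 500 bp, 1 gene with 1 region was left in sparse sgSETD8. Constituent peaks numbered 12 in dense sgSETD8. With the longer gap allowed, 0 dense sgNT regions lacked a counterpart, and 2 gene bodies instead of 1 had a sparse sgSETD8 region. Within 2500 bp of a start site, 2 genes had a dense sgNT region. Matched pairs for density were 0 at 90% cover, 2 at 50% and 6 at any overlap. Leaving out each pair gave 2 to 4 genes with sgSETD8 only and 0 to 1 with sgNT only. The cause was not tested. No paired analysis was possible, because which sample of a group each table holds is not given and the labels give no replicate numbers. The sample titles come in 2 forms, with and without the words CUT&Tag, and each form occurs in both groups. The dense and sparse pairs were matched by the naming of their identifiers, which does not make their tables paired replicates. Depth is unknown, and its part in the absence of regions was not tested.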

Other observations

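The intron 3 region of ORC1 in both dense tables and the intron 1 region of DTL in sparse sgSETD8 were each centred on a MER44D element, a fossil DNA transposon, per the deposited annotation. MER44D was the centre of 3 regions in the dense sgSETD8, 2 in the dense sgNT, 1 in the sparse sgSETD8 and 0 in the sparse sgNT table, of which 1, 1, 1 and 0 were at the licensing genes. By the annotation these regions, rather than the elements themselves, lie 3938 bp (ORC1, sgSETD8), 3975 bp (ORC1, sgNT) and 4929 bp (DTL) downstream of a start site. The pattern was noticed among the member regions and was not tested.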
